A study of Mus musculus with 9 samples.

Results

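Expression of 7 genes for spine and actin-cytoskeleton proteins was compared across 3 regions of the mouse forebrain. The genes are Actn2, Inf2, Nexn, Cobl, Ppp1r9a, Gprin3 and Dclk3. They were selected on measured values, as spine and actin-binding genes whose array signal fell from the dorsal striatum to the bed nucleus of the stria terminalis, so the size and sign of that difference are given below as description, with no test. They are 7 of the 18193 genes that had a symbol of their own on the array, and all 7 were among the 14208 genes that passed the filter on low values. They are measured by 14 of 45037 probe sets, of which 13 passed.

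Arrays came from dorsal striatum (dStr), nucleus accumbens (NAc) and bed nucleus (BNST, of the stria terminalis), with 3 biological replicates of each. Tissue was punched from semi-frozen 300 µm coronal slices of mice that had been anaesthetised with isoflurane and decapitated, and the labels name no other treatment for any group. From 10 ng of total RNA, 2-cycle labelling produced the target for Affymetrix Mouse430_2 arrays, and values are the deposited linear intensities with a lowest value of 15. The labels used here give no strain, sex, age or pooling of animals, so the p-values measure the spread between these samples, and a punch holds every cell type of its region.

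Actin filaments give dendritic spines, the small protrusions that receive most excitatory input, their shape and their ability to enlarge or shrink. Crosslinkers bundle the filaments, nucleators and formins start and lengthen them, and capping and severing proteins limit them. Medium spiny neurons, the main cell type of dStr and NAc, carry a dense cover of such spines.

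The label fits the members unevenly. Actn2 encodes alpha-actinin 2, a filament crosslinker of muscle Z-discs that is also a postsynaptic anchor of NMDA receptors; Nexn encodes nexilin, an actin-binding protein best known from striated muscle. Inf2 encodes a formin that can both assemble and take apart filaments, Cobl encodes cordon-bleu, a nucleator that shapes dendritic branches, and Ppp1r9a encodes neurabin 1, which binds actin and brings protein phosphatase 1 to spines. Gprin3 belongs to a family of G protein targets named for neurite outgrowth, and Dclk3 encodes a kinase related to doublecortin, a microtubule protein; neither is established as an actin binder, and both stand here by the selection rule. Cobl and Ppp1r9a lie in known imprinted regions.

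RefSeq promoter sequences (GRCm38.p6) were matched for 5 of the 7 genes, with 8 start sites; Nexn and Dclk3 were not matched. Actn2 and Gprin3 are shown as examples. Their BNST and dStr arrays lay far apart, and both windows hold the letters CACGTG, a palindromic form of the E-box, which are in capitals. Inf2, with the widest BNST to dStr difference of the members, also holds these letters and is not printed. Each window is the 250 bases before the annotated start, read 5′ to 3′ on the minus strand, at chr13:12340733-12340982 for Actn2 and chr6:59426307-59426556 for Gprin3.

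Actn2: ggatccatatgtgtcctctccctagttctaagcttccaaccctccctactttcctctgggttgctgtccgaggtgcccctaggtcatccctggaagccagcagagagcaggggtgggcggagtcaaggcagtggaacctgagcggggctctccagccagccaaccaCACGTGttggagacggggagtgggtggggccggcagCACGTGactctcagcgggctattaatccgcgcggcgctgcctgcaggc

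Gprin3: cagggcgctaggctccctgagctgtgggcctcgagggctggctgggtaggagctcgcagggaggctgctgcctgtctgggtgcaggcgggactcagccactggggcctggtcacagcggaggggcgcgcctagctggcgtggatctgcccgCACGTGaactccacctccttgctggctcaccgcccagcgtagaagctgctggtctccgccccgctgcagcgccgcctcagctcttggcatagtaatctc

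The Actn2 window held 2 copies of CACGTG, the nearer one 42 bases before the start, and the Gprin3 window held 1 copy, 93 bases before it. This form was searched after the sequences had been read. It occurred in 5 of the 8 windows, which belong to 4 of the 5 matched genes (Actn2, Gprin3, Inf2 and Ppp1r9a). The 2 Inf2 windows overlap and hold the same copy. Among all 32851 windows of that length 6.02% held it, as did 9.32% of the 9178 windows with at least 60% G and C. As the form was picked from these sequences, nothing is read from that count. The 2 windows shown are rich in these bases, with 63.2% for Actn2 and 68.8% for Gprin3 against a median of 52.4% for all windows, while a second Cobl window had 43.2%. The general E-box CANNTG, of which CACGTG is one form, was present in all 8 windows, in 66.2% of all windows and in 51.8% of those rich in G and C. On either strand, the SP1 box GGGCGG was present in 7 of the 8 windows, from all 5 matched genes. It was present in 32.7% of all windows and 76.5% of those rich in G and C. No match to TATAAA, to TGACG or to the CArG box, the site named for serum response factor, was present in the 8 windows. They occurred in 12.4%, 17.8% and 1.47% of all windows, and in 2.58%, 27.1% and 0.937% of those rich in G and C. These are matches of letters only.

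Across the 9 arrays the median intensity was 93.9 to 102, and 2270 to 2699 probe sets per array were at the lowest value. Correlations across genes were 0.909 to 0.981 within a region and 0.843 to 0.965 between regions; genes are not independent replicates. BNST 1 correlated more closely with NAc 3 (0.965) and NAc 2 (0.953) than with BNST 3 (0.948) or BNST 2 (0.934). NAc 1 was closest to NAc 2 (0.938), but closer to dStr 2 (0.925), BNST 3 (0.924) and BNST 2 (0.919) than to NAc 3 (0.909). BNST 1 and NAc 1 thus did not group cleanly with their own regions. The members' differences of BNST from dStr and NAc are also given without BNST 1. The tissue labels were checked on peptide genes: Crh was at 303 to 648 in BNST, 60 to 203 in NAc and 15 to 27.1 in dStr, and Cartpt at 204 to 424, 1060 to 1410 and 15 to 31.1. Tac2 also kept the regions apart, at 753 to 1290, 147 to 302 and 21.4 to 27.5. Nts did not, at 734 to 1180, 294 to 950 and 56 to 301, so its NAc arrays overlapped both other regions. Summed intensities over the 15 listed muscle genes overlapped, at 1670 to 1760 in BNST, 1690 to 1750 in NAc and 1680 to 1880 in dStr. Of the 9 tested, 0 passed in limma between BNST and dStr. Single genes did differ: Tagln, below the filter, was at 15 on all BNST and NAc arrays and 37.5 to 70.9 in dStr. Myh6 was at 141 to 158 in BNST, 114 to 126 in NAc and 105 to 128 in dStr.

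All 7 members had their lowest mean in BNST, and 6 of them had their highest in dStr. With the brightest probe set of each gene, no BNST array reached the lowest dStr array for any of the 7, where 21.5% of all genes tested had BNST arrays wholly below dStr. As the rule used this difference, nothing is read from that count. BNST arrays were wholly below NAc for 6 of 7 (8.85% of all genes), with Cobl the exception. NAc arrays were wholly below dStr for 6 of 7 (10% of all genes), with Dclk3 the exception. The 3 comparisons share arrays, and the members were selected on one of them, so all differences of members between 2 regions are descriptions.

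**Figure D1:**
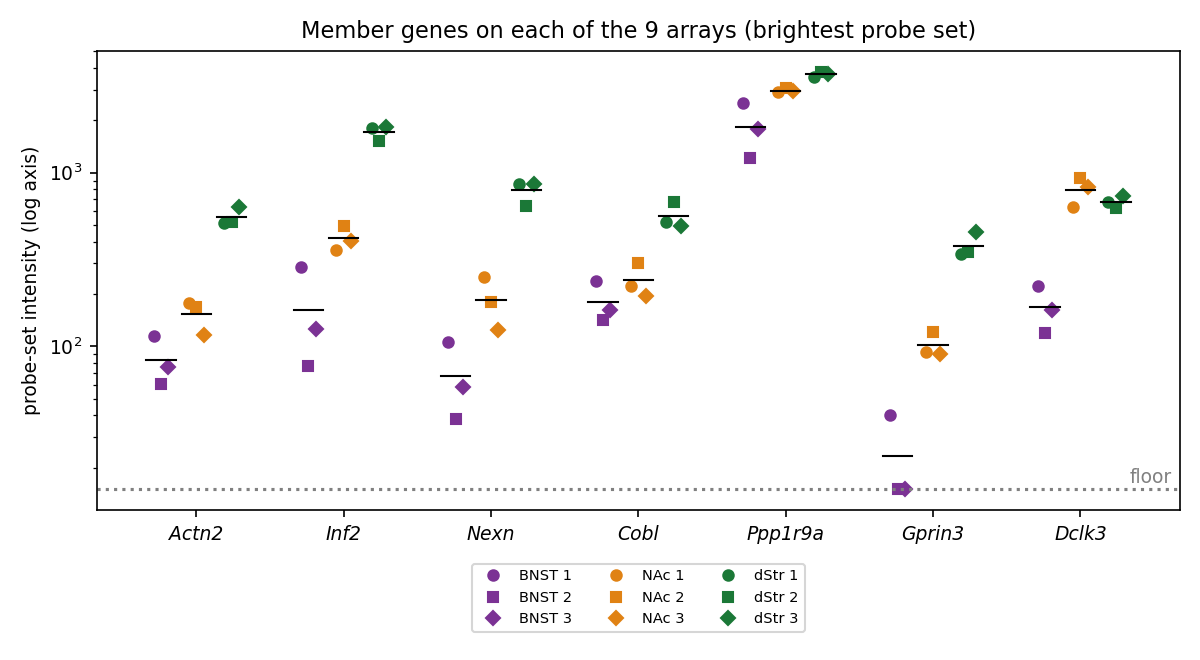
Intensity of the brightest probe set of each of the 7 members on each of the 9 arrays (log axis), with points for single arrays and bars for the region means. For each gene all BNST points lie below all dStr points, and the Dclk3 points of NAc overlap those of dStr.

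Actn2 had intensities of 114, 60.5 and 76.5 on BNST arrays 1 to 3, of 177, 169 and 116 in NAc and of 512, 520 and 630 in dStr. The dStr arrays stood apart, while the lowest NAc array was only just above the highest BNST array. The means were 83.7 ± 27.5, 154 ± 33.2 and 554 ± 65.8 (SD, n = 3 each). On the scale of log2(intensity + 16), used for every log2 difference and fold here, the BNST minus dStr difference was -2.54 (SE 0.21, 5.83-fold lower in BNST). The NAc mean lay nearer to BNST, 31% of the way up to dStr on that scale.

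Inf2, the formin, was among the members with wide differences. Its intensities were 286, 76.9 and 125 in BNST, 357, 495 and 405 in NAc and 1800, 1510 and 1830 in dStr. The regions did not overlap, but BNST varied most: the log2 SD was 0.86 in BNST, 0.23 in NAc and 0.15 in dStr, with BNST 1 the highest. The means were 163 ± 109, 419 ± 70.4 and 1710 ± 174 (SD, n = 3 each), 10.9-fold lower in BNST than in dStr (log2 difference -3.44, SE 0.34). A weaker separation came from its other probe set, 1432184_a_at, at 390, 324 and 355 in BNST, 431, 391 and 441 in NAc and 718, 558 and 683 in dStr (log2 difference BNST minus dStr -0.84). The probe sets thus shared the order of BNST and dStr but not its size.

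Nexn followed a similar course. Its intensities were 106, 38 and 58.6 in BNST, 251, 180 and 124 in NAc and 862, 641 and 864 in dStr. The regions did not overlap, although the lowest NAc array lay close to BNST 1. The means were 67.5 ± 34.9, 185 ± 63.3 and 789 ± 128 (SD, n = 3 each), with BNST 10.1-fold below dStr (log2 difference -3.34, SE 0.30).

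Cobl, the nucleator, showed a smaller step that lay between NAc and dStr. Its intensities were 237, 142 and 161 in BNST, 223, 302 and 196 in NAc and 517, 681 and 492 in dStr. BNST and NAc overlapped, since BNST 1 exceeded NAc 1 and NAc 3. The means were 180 ± 50.4, 240 ± 55 and 563 ± 103 (SD, n = 3 each), 2.99-fold lower in BNST than in dStr (log2 difference -1.58, SE 0.22) and 1.32-fold lower than in NAc. A dimmer Cobl probe set, 1442076_at, did not follow this order: it gave 83.4, 75 and 55.8 in BNST, 143, 97.5 and 124 in NAc and 74.8, 110 and 72.1 in dStr. There the BNST and dStr arrays overlapped (log2 difference -0.21) and NAc was the highest region, so the Cobl pattern belongs to the brighter probe set 1434917_at.

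Ppp1r9a was the brightest member and had the smallest difference. Its intensities were 2510, 1210 and 1780 in BNST, 2910, 3050 and 2930 in NAc and 3560, 3810 and 3680 in dStr. NAc and dStr arrays were tightly grouped, with log2 SDs of 0.04 and 0.05 against 0.52 in BNST. The means were 1830 ± 649, 2960 ± 79.2 and 3680 ± 124 (SD, n = 3 each), 2.08-fold lower in BNST than in dStr (log2 difference -1.06, SE 0.22) and 1.24-fold lower in NAc than in dStr. Of its other 4 probe sets, 1457603_at showed the widest difference, with 205, 143 and 88.1 in BNST, 187, 343 and 388 in NAc and 527, 537 and 882 in dStr (log2 difference BNST minus dStr -2.07). The NAc array 1 fell among the BNST arrays on that probe set. Probe set 1432037_at was below the filter, at 19.9 to 34.2 in BNST, 20.6 to 66.7 in NAc and 51.3 to 54.8 in dStr.

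Gprin3 was close to the lower limit of the array in BNST. Its intensities were 40.2, 15 and 15 in BNST, where BNST 2 and BNST 3 were at the lowest deposited value, against 92.8, 121 and 90.9 in NAc and 340, 347 and 453 in dStr. The 3 regions did not overlap, and the NAc mean lay 48.2% of the way from BNST to dStr. The means were 23.4 ± 14.6, 101 ± 16.7 and 380 ± 63.6 (SD, n = 3 each), 10.4-fold lower in BNST than in dStr (log2 difference -3.38, SE 0.23), a size that depends on the floor. Its dimmer probe set 1430834_at gave 31.1, 42.8 and 28.3 in BNST, 67.9, 46.1 and 46.7 in NAc and 83.6, 100 and 97 in dStr, in the same order of regions with a log2 difference of -1.14.

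Dclk3 was the only 1 of the 7 whose NAc mean exceeded its dStr mean. Its intensities were 223, 119 and 162 in BNST, 632, 926 and 823 in NAc and 675, 628 and 738 in dStr. NAc and dStr overlapped, and every BNST array was below all of them. The means were 168 ± 51.9, 794 ± 149 and 680 ± 55 (SD, n = 3 each), 3.88-fold lower in BNST than in dStr (log2 difference -1.96, SE 0.21), 4.47-fold lower in BNST than in NAc and 1.15-fold higher in NAc than in dStr.

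Over the 7 members the BNST minus dStr log2 differences ran from -3.44 to -1.06 with a median of -2.54, where the median over all genes tested was -0.06. For BNST minus NAc the members' median was -1.3 against -0.05 for all genes, and for NAc minus dStr -1.75 against -0.01. The difference from NAc was smaller than that from dStr for each member but Dclk3: Actn2 was 1.73-fold lower in BNST than in NAc, Inf2 2.73-fold, Nexn 2.46-fold, Ppp1r9a 1.68-fold and Gprin3 3.09-fold. Of all 14 probe sets, the mean was lower in BNST than in dStr for 14, lower in BNST than in NAc for 14 and lower in NAc than in dStr for 12.

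**Figure D2:**
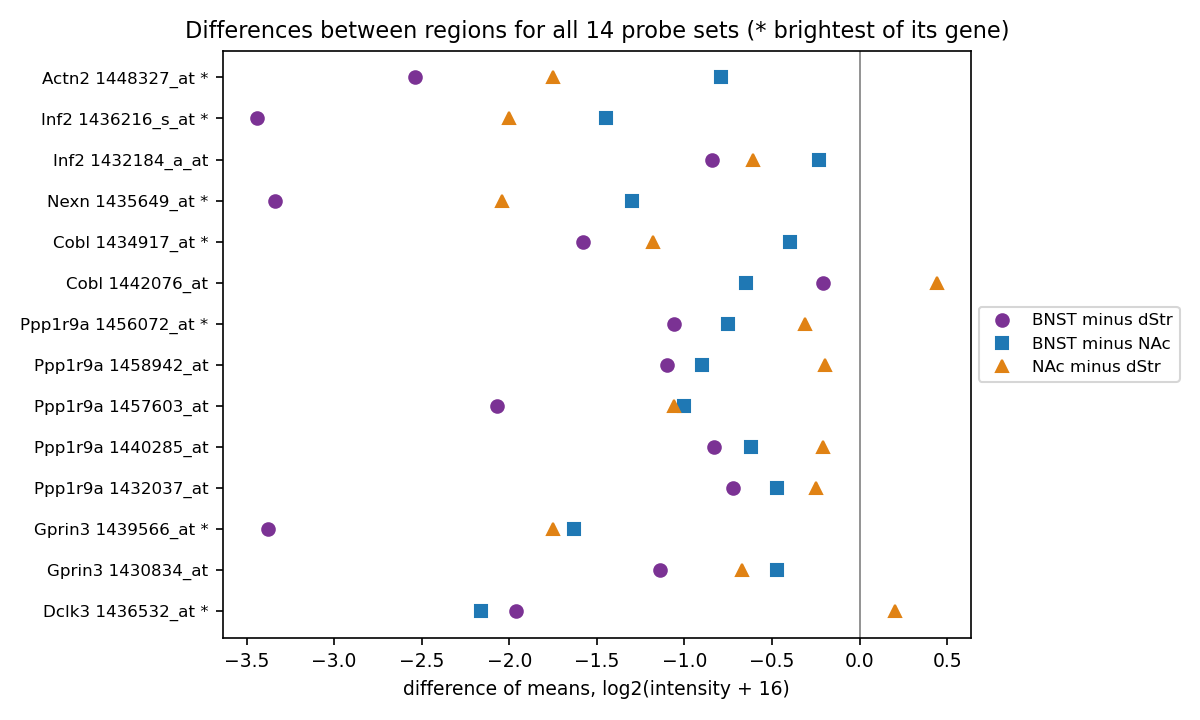
Log2 difference between regions for each of the 14 probe sets of the 7 members. All 14 lie below 0 for BNST minus dStr, but the size differs within Inf2, Cobl, Gprin3 and Ppp1r9a, and Cobl 1442076_at is at -0.21.

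The one comparison tested on the members asks where NAc lies relative to the midpoint of BNST and dStr on the log2 scale. With equal numbers of arrays per region, this position is estimated apart from the BNST minus dStr difference that the rule used. Earlier results of these data were known when the members were chosen, so it may not be free of that choice. Dclk3 was 1.18 above its midpoint (95% interval 0.77 to 1.59) and passed in limma (adjusted p = 0.0305 over all genes tested). It was the only 1 of 7 members to pass, where 0.211% of all genes passed above and 0.176% below the midpoint. Actn2 was 0.48 below its midpoint on this scale, with a 95% interval of -0.90 to -0.07 and an unadjusted limma p of 0.0262, but its adjusted p was 0.698. Cobl was at -0.39 (interval -0.81 to 0.03), Nexn at -0.37 (-0.95 to 0.22), Inf2 at -0.27 (-0.93 to 0.38), Gprin3 at -0.06 (-0.51 to 0.39) and Ppp1r9a at 0.22 (-0.20 to 0.64), none of which passed in limma. The intervals of these 5 members include positions on both sides of the midpoint.

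The Dclk3 call rested on most of the arrays. The adjusted p in limma rose to 0.0935 when BNST 3 was left out, to 0.188 for NAc 2, 0.0852 for NAc 3, 0.0983 for dStr 1, 0.0916 for dStr 2 and 0.0831 for dStr 3. It stayed under the threshold without BNST 1, BNST 2 or NAc 1. The difference itself was 1.06 to 1.33 over these fits.

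**Figure D3:**
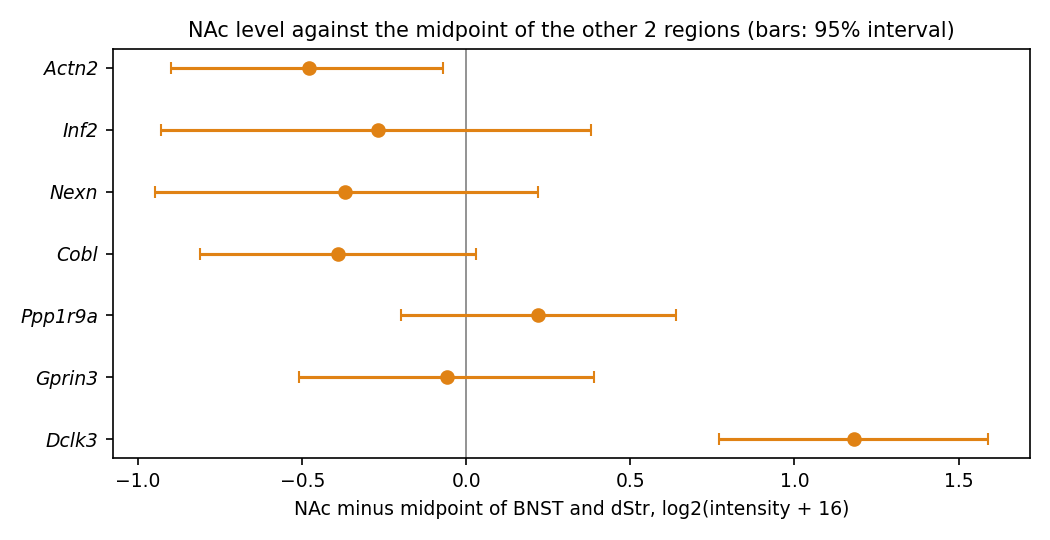
Position of NAc relative to the midpoint of BNST and dStr for the 7 members, in log2(intensity + 16), with bars for the 95% interval of the limma fit over 9 arrays. Dclk3 lies at 1.18, and the intervals of 5 members include 0.

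With the brightest probe set of each gene, the members moved together between the BNST arrays. BNST 1 was the highest BNST array for 7 of 7 members, with a median deviation from the region mean of 0.51 on the log2 scale, and BNST 2 was the lowest for 7 of 7, tied with BNST 3 at the floor for Gprin3. In NAc, array 2 was the highest for 5 members, and in dStr array 3 was the highest for 5. Other probe sets did not all keep the BNST order. Gprin3 1430834_at was highest on BNST 2 (42.8) and Ppp1r9a 1440285_at on BNST 3 (2120), while Cobl 1442076_at and Ppp1r9a 1457603_at were lowest on BNST 3. The share of all genes with that order is not given here, so it is not read as a trait of the members. Without BNST 1 the BNST minus dStr log2 difference became -2.75 for Actn2, -3.91 for Inf2, -3.65 for Nexn, -1.78 for Cobl, -1.31 for Ppp1r9a, -3.66 for Gprin3 and -2.16 for Dclk3. The BNST minus NAc log2 difference, without BNST 1 and with it, was -1.0 and -0.79 for Actn2, -1.91 and -1.45 for Inf2, -1.61 and -1.30 for Nexn, -0.60 and -0.40 for Cobl, -1.0 and -0.75 for Ppp1r9a, -1.91 and -1.63 for Gprin3 and -2.37 and -2.16 for Dclk3. Both differences were larger in size for each of the 7 without that array.

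Medium spiny neuron markers had the same order as the members over the BNST arrays. Of 15 listed markers, which include the dopamine receptor genes Drd1 and Drd2, 13 were measured and none was at the floor throughout a region. Their summed intensity was 13500, 5820 and 10400 on BNST arrays 1 to 3, 31200, 26800 and 22900 in NAc and 37200 to 41500 in dStr, so BNST 1 was high and BNST 2 low for markers and members alike. In NAc the orders differed, with array 1 highest for the markers and array 2 highest for 5 members. In such bulk punches, fewer medium spiny neurons and less RNA of a member per neuron cannot be told apart, and the part of cell composition in the members' differences was not tested.

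Set against the mean log2 level of these 13 markers on the same array, the members did not all keep their sign. The marker mean itself was 2.32 lower in BNST than in dStr on the log2 scale, 1.60 lower in BNST than in NAc and 0.72 lower in NAc than in dStr. Single markers ran from -3.13 to -1.21 for BNST minus dStr, -2.38 to -1.08 for BNST minus NAc and -1.74 to -0.14 for NAc minus dStr. A sign relative to their mean thus does not by itself place a member outside the markers. Inf2, Gprin3 and Nexn remained lower in BNST than in dStr relative to the markers, by log2 differences of -1.12, -1.06 and -1.02, and Actn2 was at -0.22. Dclk3 (0.37), Cobl (0.74) and Ppp1r9a (1.26) had the opposite sign, since they differed less than the markers. For NAc minus dStr, Actn2 (-1.03), Inf2 (-1.27), Nexn (-1.32), Gprin3 (-1.03) and Cobl (-0.46) were lower relative to the markers, and Ppp1r9a (0.41) and Dclk3 (0.93) were higher. For BNST minus NAc, Dclk3 (-0.56) was lower relative to the markers and Gprin3 was at -0.03, while Inf2 (0.15), Nexn (0.30), Actn2 (0.81), Ppp1r9a (0.85) and Cobl (1.20) had the opposite sign. These relative values were computed after the data had been seen and have no test.

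**Figure D4:**
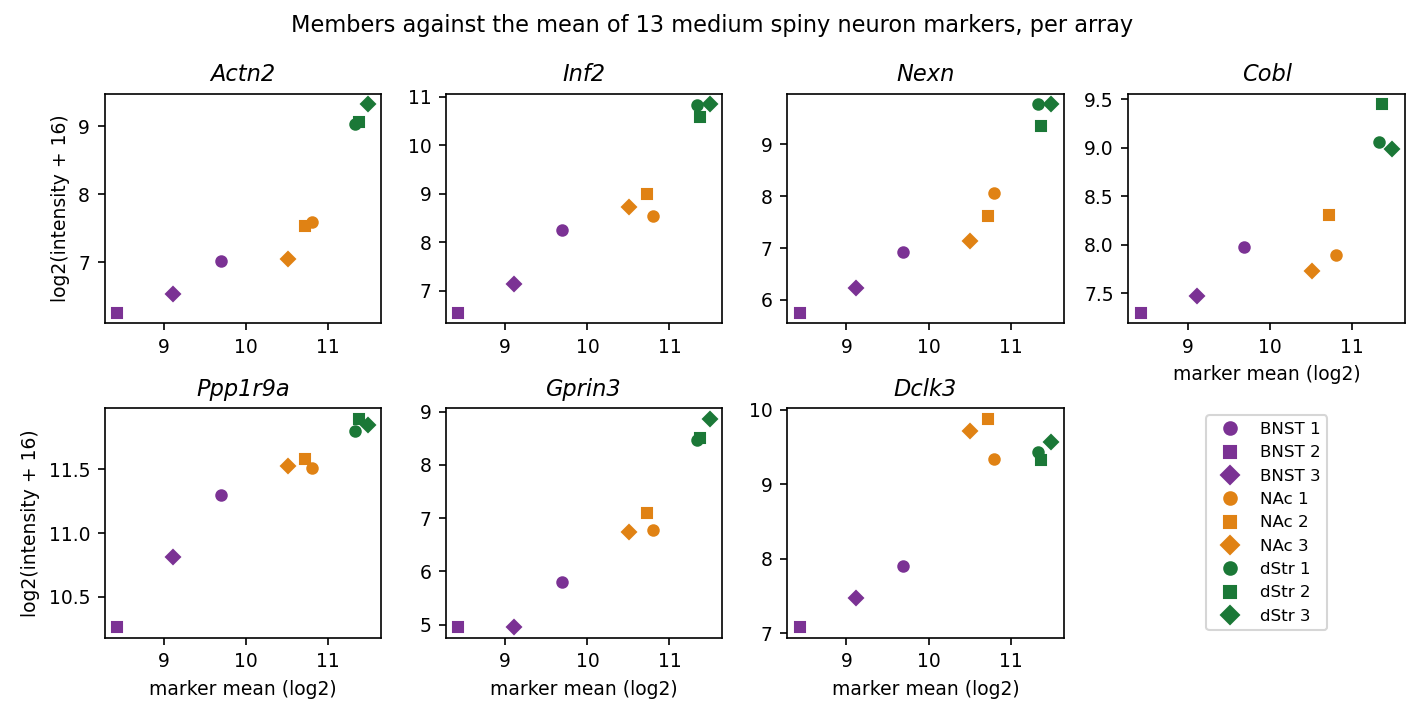
Log2(intensity + 16) of each member (vertical axis, range set per panel) against the mean log2 level of the 13 measured medium spiny neuron markers (horizontal axis), with 1 point per array. BNST 2 is lowest on both axes for each member, tied with BNST 3 for Gprin3, and for Dclk3 the NAc and dStr points overlap on the vertical axis.

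Markers of other cell types also moved with region. Summed astrocyte markers (10 of 10 measured) were 8730 to 11300 in BNST, 5920 to 7810 in NAc and 6200 to 7060 in dStr, and ependyma and choroid plexus markers (10 of 10) 1870 to 3820, 663 to 706 and 623 to 713, with Otx2 and Tmem212 at the floor on all dStr arrays. Microglia markers (10 of 10) ran the other way, at 2940 to 3760, 3700 to 4500 and 4990 to 5190, as did those of endothelium and pericytes (10 of 10), at 2060 to 2270, 2240 to 2430 and 2910 to 3040. Oligodendrocyte markers (9 of 10) overlapped, at 18600 to 20700, 15000 to 22000 and 17900 to 20500, and so did interneuron markers (9 of 9), at 2110 to 2300, 1570 to 2720 and 1950 to 2630. Cortical excitatory markers (9 of 10) were at 1780 to 1870, 1320 to 1640 and 1610 to 1860, with Neurod6 at the floor on all BNST and NAc arrays, and thalamic and hypothalamic markers (8 of 8) at 3180 to 4220, 2130 to 3000 and 2340 to 3050. Sums are carried by the brightest genes and can hide single markers. Of 5 cortical markers tested, 2 were higher and 1 lower in BNST than in dStr by limma, against 4.94% and 9.33% of all genes. Rasgrf2 was at 518 to 678 in BNST and 61.5 to 78.7 in dStr, and Nrn1 at 183 to 388 and 63.1 to 102. Lmo3 ran the other way, at 328 to 448 in BNST and 944 to 991 in dStr. Slc17a6 was at 144 to 196 in BNST, 21.3 to 59.8 in NAc and 19 to 34.8 in dStr, while Tcf7l2, the brightest on that list, overlapped. Sst was at 603 to 834 in BNST and 347 to 404 in dStr, although 0 of 7 interneuron markers tested passed in limma. The part of these cell types in the members' differences was not tested.

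The paralogs tested, of Actn2, Cobl, Gprin3 and Dclk3 only, mostly did not pass as lower in BNST than in dStr. No paralog of Inf2, Nexn or Ppp1r9a was in that set. Of 9 tested, 2 were lower and 2 higher in BNST than in dStr by limma, where 9.33% of all genes tested were lower and 4.94% higher. Actn1, the alpha-actinin of non-muscle cells, was lower with Actn2, at 515 ± 230 in BNST, 924 ± 187 in NAc and 1530 ± 11.1 in dStr (SD, n = 3 each; log2 difference -1.63, limma adjusted p = 0.00255), although 1 of its 2 other probe sets had the opposite sign. Actn4 was at 475 ± 58.4, 473 ± 32.6 and 517 ± 54.8 in the same order and did not pass, and Actn3 at 56.8 ± 12.1, 81.9 ± 99.2 and 236 ± 178, with a spread as large as its mean in NAc.

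The doublecortin relatives went separate ways. Dclk1 was lower in BNST (737 ± 108) than in dStr (1230 ± 87.9; SD, n = 3 each; log2 difference -0.74, limma adjusted p = 0.035), a call lost without BNST 2 (0.126), BNST 3 (0.123), NAc 2 (0.0519), dStr 1 (0.0813), dStr 2 (0.088) or dStr 3 (0.121). Dcx, which encodes doublecortin of young migrating neurons, was higher in NAc (216 ± 33.7) than in dStr (96.1 ± 7.23; log2 difference 1.04, limma adjusted p = 0.00818). Its difference between BNST (162 ± 27.6) and dStr was 0.66 (limma adjusted p = 0.0209), lost without BNST 2 (0.081), dStr 1 (0.0812) or dStr 2 (0.0681). Dclk2 did not pass in any of the 3 comparisons by limma, with 132 ± 18.8 in BNST, 120 ± 21.4 in NAc and 113 ± 3.55 in dStr.

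Among relatives of Gprin3, Gprin2 ran opposite to it, at 126 ± 5 in BNST and 71.9 ± 5.37 in dStr (SD, n = 3 each; log2 difference 0.69, limma adjusted p = 0.0197). That call was lost without BNST 2 (0.0596), BNST 3 (0.0641), dStr 1 (0.0829) or dStr 3 (0.0646). Gprin1 was nearly level, at 312 ± 26.6 in BNST, 329 ± 17.3 in NAc and 333 ± 26.4 in dStr. Cobll1, the relative of Cobl, was at 152 ± 54.7 in BNST, 84.8 ± 21.1 in NAc and 96.1 ± 7.87 in dStr and did not pass.

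Besides the members, 198 of 234 listed genes of spine structure and actin regulation were tested. These lists include some of the paralogs above, such as Actn1, which is counted again here. They were chosen with earlier results of these data known, so their shares beside those of all genes are descriptions. Between BNST and dStr, 45 (22.7%) were lower in BNST and 11 (5.56%) higher by limma, against 9.33% and 4.94% of all genes, and their median log2 difference was -0.17 against -0.06. The counts were 29 lower without BNST 2 and 7 higher without BNST 2 or dStr 1, and 18 were higher without NAc 1. After quantile normalisation, which moved the all-gene median log2 difference up by 0.117, the split was 38 lower and 26 higher.

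Between BNST and NAc, 10 (5.05%) were lower in BNST and 1 (0.505%) higher, where 1.48% and 0.76% of all genes were. This count depended on single arrays, with 32 lower without BNST 1, 1 without BNST 2, BNST 3 or NAc 2, 2 without dStr 1 and 3 without dStr 2 or dStr 3. After quantile normalisation it was 11 lower and 3 higher. Between NAc and dStr, 3 (1.52%) were lower in NAc and 3 (1.52%) higher, where 1.1% and 0.95% of all genes were. Of those lower, 10 were counted without BNST 1, 5 without NAc 1 and 1 without dStr 3, and of those higher, 5 without NAc 1 and 1 without dStr 3.

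**Figure D5:**
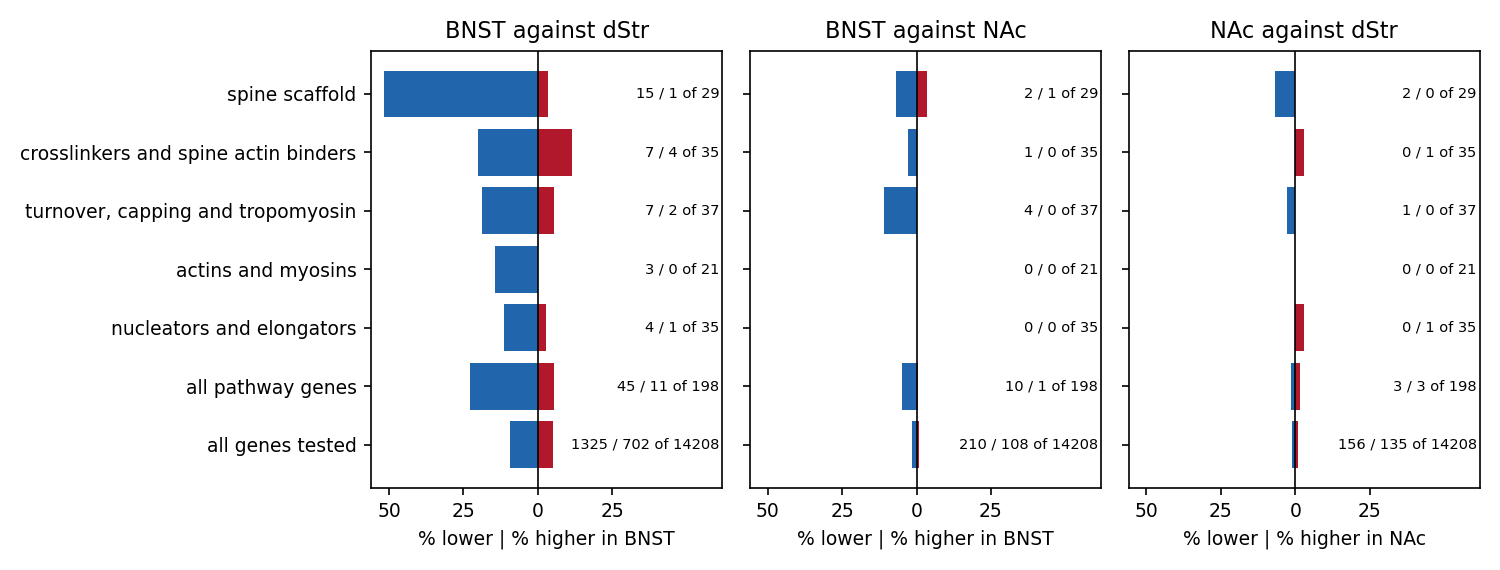
Percent of tested genes lower (blue) or higher (red) by limma in each of 5 lists of actin and spine genes, members left out, for the 3 comparisons, with the counts at the right. The spine scaffold list has 15 of 29 genes lower in BNST than in dStr, and all genes tested are shown in the bottom row.

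Spine scaffold genes held the most calls between BNST and dStr, with 15 of 29 lower (51.7%) and 1 higher (3.45%) and a median log2 difference of -0.78. Of all genes tested, 9.33% were lower and 4.94% higher. As this list too was chosen with earlier results known, nothing is read from the excess. Without NAc 1, 2 scaffold genes were higher. Ppp1r1b, which encodes the phosphatase regulator DARPP-32 and is also on the medium spiny neuron list, was 8.29-fold lower in BNST (276 ± 156 against 2200 ± 212; SD, n = 3 each; limma adjusted p = 0.000676). Sh3rf2 was 6.72-fold lower (54.8 ± 29.8 against 439 ± 76.2; limma adjusted p = 0.000157) and Dlgap2, a partner of PSD-95, 6.06-fold (50.8 ± 37.9 against 355 ± 61.5; limma adjusted p = 0.0015). The paired scaffolds Homer1 and Homer2, which link glutamate receptors to internal calcium stores, were opposite. Homer1 was 4.9-fold lower in BNST than in dStr (351 ± 170 against 1670 ± 73.5; limma adjusted p = 0.000377) and Homer2 2.99-fold higher (529 ± 71.9 against 165 ± 11.7; limma adjusted p = 0.000124). Homer2 was also 2.73-fold higher in BNST than in NAc (183 ± 22; limma adjusted p = 0.00111).

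Crosslinkers and spine actin binders, the class of Actn2, Nexn and Ppp1r9a, had 7 of 35 lower in BNST than in dStr (20%) and 4 higher (11.4%). The shares of all genes tested were 9.33% and 4.94%. Itpka, a kinase that bundles actin in spines, was 3.53-fold lower (314 ± 116 against 1100 ± 99.8; SD, n = 3 each; limma adjusted p = 0.00117), and Synpo, which encodes synaptopodin of the spine apparatus, 2.88-fold (69 ± 13.7 against 229 ± 39.7; limma adjusted p = 0.000471). Fscn1, the bundling protein fascin, was 2.96-fold lower (limma adjusted p = 0.0107). Eps8, a capping and bundling protein, was 2.32-fold higher in BNST (287 ± 60.2 against 113 ± 3.71; limma adjusted p = 0.00314), with 1 of its 2 other probe sets of opposite sign.

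Nucleators and elongators, the class of Inf2 and Cobl, had 4 of 35 lower in BNST than in dStr (11.4%) and 1 higher (2.86%). These shares are near the 9.33% and 4.94% of all genes tested. The number lower was 9 without BNST 1 or NAc 1, 2 without BNST 3 and 1 without BNST 2, dStr 1, dStr 2 or dStr 3. There were 4 higher without NAc 1 and 2 without NAc 3. Diaph2, a formin like Inf2, was 2.53-fold lower in BNST (308 ± 104 against 776 ± 54.1; SD, n = 3 each; limma adjusted p = 0.00432). Enah, which lengthens filaments, was 2.14-fold higher (1910 ± 141 against 886 ± 74.9; limma adjusted p = 0.000661), with 1 of its 4 other probe sets opposite.

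Turnover, capping and tropomyosin genes had 7 of 37 lower (18.9%) and 2 higher (5.41%) between BNST and dStr, against 9.33% and 4.94% of all genes. None was higher without BNST 2, and 1 was higher without BNST 3, dStr 1, dStr 2 or dStr 3. Coro7 was 3.39-fold lower (236 ± 62.4 against 824 ± 52.8; SD, n = 3 each; limma adjusted p = 0.000197). Tmod1, a tropomodulin that caps slow-growing filament ends, was 3.04-fold lower (85 ± 23.5 against 288 ± 42.4; limma adjusted p = 0.00129). Tmod3 was 2-fold lower (limma adjusted p = 0.00142), and Phactr1, which binds actin and protein phosphatase 1, 2.11-fold lower (limma adjusted p = 0.00181) with 1 of its 3 other probe sets opposite.

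Actins and myosins had 3 of 21 lower (14.3%) and 0 higher between BNST and dStr by limma, against 9.33% and 4.94% of all genes. There was 1 lower without BNST 2 and 1 higher without dStr 2. Myh10, a non-muscle myosin, was 2.23-fold lower in BNST (900 ± 198 against 2000 ± 88.4; SD, n = 3 each; limma adjusted p = 0.00332). The cytoplasmic actins themselves did not pass: Actb was at 4370 ± 1030 in BNST, 5300 ± 957 in NAc and 5800 ± 458 in dStr, and Actg1 at 5220 ± 254, 5170 ± 313 and 4970 ± 459 (limma adjusted p for BNST against dStr 0.17 and 0.752). These 2 actins were picked for display after their values had been seen.

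The members were most alike in small sets. Likeness was the root mean square difference of log2 profiles, each centred on its own mean over the 9 arrays, so a smaller value is a closer match. Among members, Inf2 and Gprin3 (0.25), Inf2 and Nexn (0.31) and Nexn and Gprin3 (0.32) were the closest, and Inf2 and Ppp1r9a (1.02) the farthest apart. Among the 7099 other genes tested whose mean lay above the median of all genes, Inf2 was closest to Rasd2 (0.23), a striatal GTPase gene on the medium spiny neuron list with means of 637, 1400 and 4710 in BNST, NAc and dStr. Nexn was closest to Lrrc10b (0.21) and Rasgrp2 (0.22), and Gprin3 to Thsd7a (0.25).

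Dclk3, which was as high in NAc as in dStr within their spread, was closest to the transcription factor genes Foxp2 (0.16; means of 153, 704 and 707 in BNST, NAc and dStr) and Runx1t1 (0.17; 334, 1290 and 1340). Actn2 was closest to Gcnt2 (0.13; 104, 170 and 579), Cobl to Pdp1 (0.14) and Zbtb18 (0.15), and Ppp1r9a to Jakmip1 (0.10; 1060, 1910 and 2440). The arrays share region and depth of signal, so these matches are descriptions.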

How the data were processed

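The deposited values are linear Affymetrix signal intensities, 1 per probe set and array, with similar medians on all arrays; the authors' summarisation and scaling method is not given in the sources used here. From these, log2(intensity + 16) was taken. Probe sets whose intensity exceeded the array's 40th percentile on 3 or more arrays were retained (29293), and each gene was represented by its brightest kept probe set. Symbols came from the platform annotation: 34945 probe sets had 1 symbol, 932 several and 9160 none, and of the first 34741 matched RefSeq by Entrez number, with 0 symbols changed.

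All 3 regions were fitted in 1 model with limma 3.58.1 (lmFit, eBayes) in R 4.3.3, with 6 residual degrees of freedom, two-sided, and Benjamini-Hochberg adjustment over 14208 genes at 0.05; the number of arrays limits the precision. The code was tested on simulated data. The members and lists were chosen with earlier results of these data known. The 7 members and their measured paralogs were eligible for naming, with up to 4 passing genes per list, comparison and direction by size of difference, and the 3 nearest profiles per member among genes with a mean above the median of all genes; from these, text was given mainly to calls that no single left-out array ended. The labels do not say whether replicate numbers pair the samples, and the main fit did not use them. Alternatives covered scaling, filter, probe set, prior, pseudocount, replicate block, arrays in the fit, size of call and each array left out; leaving out BNST 1 and NAc 1 together, the marker-relative level and the peptide gene check were added after the data had been seen. Paralog Ppp1r9b was not analysed here, and 1 list of regulators, counted in the totals over all listed genes, is not reported by itself here.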

Additional observations from a re-analysis of the deposited data

How the results depend on the processing

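The members' differences between regions kept their sign in all fits with the brightest probe sets; their median for BNST minus dStr was -2.75 to -2.37 with 1 array left out and -2.08 with a pseudocount of 64. The number of members passing against the midpoint was 0 without the filter, 0 with the replicate block (Dclk3 adjusted p in limma 0.114) and 0 to 1 with 1 array left out; with BNST 1 and NAc 1 both left out, Dclk3 passed with 0.00127. Of 56 named calls, 29 were lost when some 1 array was left out and 27 were not. Whether samples of different regions with the same replicate number share animals is not stated in the labels. The reported fit takes them as unpaired, and the Dclk3 call depends on that choice. With the block, 36 of the listed actin and spine genes were lower and 9 higher in BNST than in dStr.

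Among the listed actin and spine genes, those lower in BNST than in dStr numbered 25 at an absolute log2 difference of at least 1, 75 without BNST 1 and NAc 1 together, and 29 to 59 with 1 array left out. Those higher numbered 26 after quantile normalisation, 17 with the mean of probe sets, 17 with the arrays of the pair alone, 4 at the size limit, 20 without both arrays, and 7 to 18 with 1 left out. Genes lower in BNST than in NAc numbered 3 without the filter, 5 with the mean of probe sets, 3 with the replicate block, 0 with the pair alone, 4 at the size limit, 54 without both arrays, and 1 to 32 with 1 left out. Those higher numbered 3 after quantile normalisation and 2 after median centring. Genes lower in NAc than in dStr numbered 5 with the mean of probe sets, 7 with the pair alone, 13 without both arrays and 1 to 10 with 1 left out, and those higher 1 at the size limit, 10 without both arrays and 1 to 5 with 1 left out. The causes were not tested beyond the fewer samples or the stricter limit.

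Signs turned, none in a called value. Against the midpoint these were Gprin3 at 0.16 with a pseudocount of 1, 0.13 without both arrays and -0.18 to 0.08 with 1 left out, Inf2 at 0.06 without both arrays, Cobl at 0.08 with the mean of probe sets and 0.55 on probe set 1442076_at, and Ppp1r9a at -0.03 on 1457603_at. Cobl NAc minus dStr was 0.44 on 1442076_at. After quantile normalisation Actn4 was 0.09 and Gprin1 0.07 for BNST minus dStr, and Gprin1 0.04 for BNST minus NAc and for NAc minus dStr. Gprin1 NAc minus dStr was 0.01 after median centring and with the mean of probe sets, and -0.07 to 0.04 with 1 array left out. Actn3 BNST minus NAc was -0.07 with a pseudocount of 64, -0.43 without both arrays and -0.52 to 0.86 with 1 left out. Dclk2 NAc minus dStr was -0.05 without both arrays and -0.05 to 0.17 with 1 left out. Levels near the floor of 15, as for Gprin3 in BNST, limit the size of a fold.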

Other observations

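Other formins, the family of Inf2, were chosen for display after their values had been seen. Diaph2, given above, passed between BNST and dStr in limma, while Daam1, Daam2, Diaph1, Diaph3, Fmn1, Fmn2, Fmnl2 and Fhod3 did not. Daam1 was at 796 ± 263 in BNST, 623 ± 419 in NAc and 336 ± 42.3 in dStr (SD, n = 3 each), with a limma adjusted p of 0.162 for BNST against dStr. Daam2 was at 295 ± 26.4, 317 ± 60.8 and 440 ± 59.1 (limma adjusted p = 0.051), with the same sign as Inf2. Fhod3 was at 174 ± 37.8, 140 ± 26.7 and 105 ± 22.5 (limma adjusted p = 0.058) and Fmnl2 at 213 ± 33.6, 188 ± 25 and 146 ± 10.8 (limma adjusted p = 0.0558), both with the opposite sign to Inf2. Diaph1, at 572 ± 83.2, 650 ± 53.1 and 692 ± 51.1, and Fmn2, at 410 ± 108, 412 ± 42.1 and 380 ± 42.2, were near level.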
